A study of Mus musculus with 2 samples.

Results

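Siglech, Tcf4, Pacsin1, Runx2, Bcl11a and Ptprs are genes known for their expression in plasmacytoid dendritic cells, and each was read by several probes on the arrays described here. The 6 genes, of 27248 named on the array, were chosen by measured values: in earlier results of the same data, probes of some of these genes had disagreed on the difference between the groups, so the differences below are a description of the probes, with no test. All probes that the array files name for these genes were taken, 20 in all. The label under which they were brought together, probe conflicts, held for Siglech and Tcf4. It held for Bcl11a only just past 2-fold and with all detected probes in 1 direction. It did not hold for Pacsin1 and Ptprs. For Runx2 it could not be decided, since both detected probes gave only bounds.

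Both groups came from S100A4-GFP transgenic mice of strain C57BL/6, and no animal without the transgene was measured. The Peyer's patches of the small intestine were cut up and digested with dispase II, collagenase D and DNase I, and the freed cells were sorted by flow cytometry into an S100A4-negative and an S100A4-positive fraction. The fractions gave 1 RNA sample each, and each sample was read with the dye Cy3 on a separate 1-colour array of 60-base probes. The age and number of the animals, any pooling and the promoter that drives the reporter are not given in the sources used here. The question of the study was how gene expression differs between the fractions.

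Each group is a single array, so differences could not be checked against replicates and carry no p-value. The errors printed are the scanner software's estimates per spot, which do not cover variation among animals, sorts or labelling. A probe counts as detected where the software marked it well above background. Of 59305 non-control spots, 53.3% were detected in the S100A4-negative sample, 52.3% in the other, and none was saturated. S100a4, the gene that the reporter is named for, read 1057 and 119341, a log2 difference of 7.45. Signals are printed as the software gave them, in arbitrary units, while each difference is positive minus negative on the log2 scale after subtraction of the array's 75th percentile, which was 445.9 for the negative array and 287.3 for the positive one. A probe that is dark on 1 array has only a bound there, written "at least". Positions on the mouse build mm9 were taken from the array files, and exons, introns and untranslated regions were not analysed here.

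Plasmacytoid dendritic cells are immune cells that sense nucleic acids through endosomal Toll-like receptors and can release large amounts of type I interferon. Their identity is set by the transcription factor TCF4, also called E2-2, which acts with BCL11A and others and switches on surface and signalling genes such as Siglech. Several of these genes are not restricted to that cell type. Bcl11a and Tcf4 are also known in B cells, Runx2 in bone, and Pacsin1 and Ptprs in neurons. In sorted bulk samples, fewer cells of a type and less RNA per cell cannot be told apart.

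Sequences are printed first for the probes of Siglech, the gene whose probes were furthest apart. Siglech was read on the plus strand of chromosome 7 by A_55_P2734922 (chr7:63024045-63024269), A_55_P2141008 (chr7:63028608-63028667) and A_55_P2141013 (chr7:63034088-63034147), the first mapped across 225 bases of genome and thus split by at least 1 gap. The probe nearest the 3′ end lies 5480 and 10043 bases downstream of the other two. The first lines give 30 bases of each Siglech probe, 5′ to 3′, and the next lines the matching 30 bases of probes for 4 unrelated genes, Elk1 (chrX:20510521-20510580, minus strand), Glrx2 (chr1:145596708-145596767, plus strand), Cxcl11 (chr5:92788567-92788626, minus strand) and Med16 (chr10:79357669-79357728, minus strand). They are shown because the 15 letters in capitals, bases 16 to 30 of A_55_P2141013, are the same in each of the last 5 lines.
Siglech A_55_P2734922: ctgtgaggaaaggatctctgtgcatgtgac
Siglech A_55_P2141008: tgtgtgaacagtcttccctggtggattcct
Siglech A_55_P2141013: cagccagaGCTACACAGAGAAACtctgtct
Elk1 A_55_P1954986: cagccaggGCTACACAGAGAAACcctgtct
Glrx2 A_55_P2106078: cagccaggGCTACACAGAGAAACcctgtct
Cxcl11 A_55_P2160387: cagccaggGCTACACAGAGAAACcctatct
Med16 A_55_P1967617: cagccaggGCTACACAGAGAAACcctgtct
Over these 30 bases, the Elk1, Glrx2 and Med16 probes were identical to the Siglech probe at 28 letters and the Cxcl11 probe at 27. As background, these letters resemble the end of the B1 element, a short repeat that occurs in very many copies in the mouse genome and also inside transcripts.

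Of the 20 probes, 13 were detected on both arrays, 5 on the positive array alone, none on the negative array alone and 2 on neither. Of the 18 detected on at least 1 array, with bounds taken at their value, 8 were at least 2-fold higher in the S100A4-positive fraction (44.4%, beside 20.9% of all detected probes of the array), 4 were at least 2-fold lower (22.2%, beside 14.8% of all) and 6 lay within 2-fold. The 5 probes seen on the positive array alone could only be higher or undecided. The median difference of the 18 was 0.63, and that of all detected probes was 0.06. No gene had detected probes on both sides of 0 under the 75th percentile scaling. Scaling on the E1A spike-in controls instead, which are added to the labelling and were 3.48-fold brighter on the positive array, shifted all differences by -2.43. Then 2 of the probes were at least 2-fold higher, both upstream ones of Siglech (4.84 and 1.94), and 10 were at least 2-fold lower. The shift applies to all probes of the array, and their shares past 2-fold under it are not given here. The shares of 20.9% and 14.8% belong to the 75th percentile scaling and are not to be set beside these counts. The shift leaves the differences between probes of 1 gene that were detected on both arrays as they are.

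**Figure D1:**
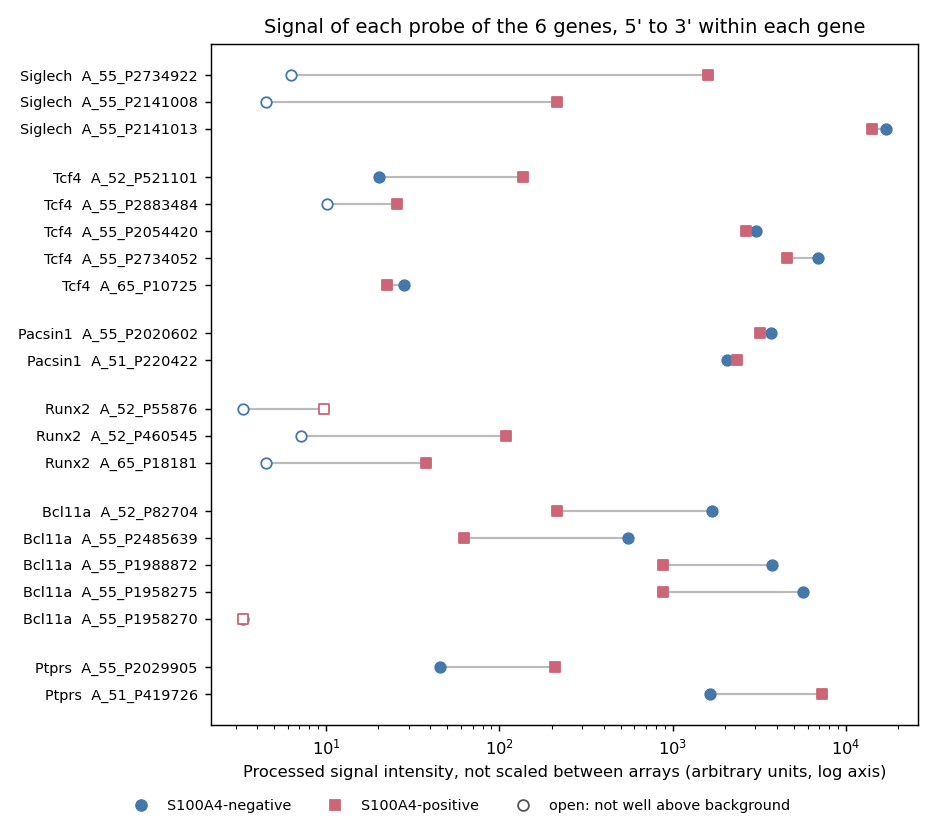
Processed signal intensity (arbitrary units, log axis, not scaled between arrays) of each of the 20 probes on the S100A4-negative array (circles) and the S100A4-positive array (squares), ordered 5′ to 3′ within each gene, with open symbols where a probe was not well above background. The 2 upstream Siglech probes are dark on the negative array, while the third reads 17085 and 14227.

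Siglech encodes a sialic acid-binding surface lectin that is widely used to mark plasmacytoid dendritic cells of the mouse. Its most upstream probe, A_55_P2734922, read 6.25 on the negative array, not well above background, and 1604 on the positive array, at least 154-fold higher (a log2 difference of at least 7.27). Its middle probe, A_55_P2141008, read 4.49, not well above background, and 215, at least 20.6-fold higher. Its 3′ probe, A_55_P2141013, read 17085 and 14227, a log2 difference of 0.37 ± 0.20 that became -0.26 with no scaling and -2.06 on the E1A controls. So 2 Siglech probes were seen on the positive array alone and the third was bright on both, a little less so on the positive array before scaling. Under normexp background correction, which adds an offset of 50 to every signal, the upstream probes stood at 4.87 and 2.42 and the third at 0.20. The differences of the 3 probes as reported spread over at least 6.90 on the log2 scale, or 119-fold. That put Siglech at percentile 99.9 of the 6917 genes with at least 2 detected probes, whose median spread was 0.54. The gene's value therefore turned on the probe taken for it, 0.37 by the brightest probe or the one nearest the 3′ end and 4.37 by the median of its probes.

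The 3′ Siglech probe stood apart from the other 19 in how many probes of other genes it resembles in sequence. It shared a run of 15 identical letters with 24 probes of other genes on the same strand and with 12 on the opposite strand. None of the other 19 shared such a run with more than 3 on the same strand, and 14 shared it with none on that strand, among them both upstream Siglech probes. Of all 56605 probes, 28.4% shared a run of this length on the same strand with at least 1 other gene and 2.03% with 5 or more. These shares count genes, while the 24 above counts probes. With runs of 12 letters the count for the 3′ Siglech probe was 62 on the same strand and with 18 letters it was 4. Of the 24 probes, 17 were detected on both arrays, and their median difference was 0.47.

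The capital letters shown above, GCTACACAGAGAAAC, were searched on both strands of all probes, and they may overlap other runs that these probes share. They were held by 13 probes, 0.0230% of all, and their reverse complement by 4. Of the 12 probes other than that of Siglech, 10 were detected on both arrays, and their differences ran from 0.22 to 1.81 with a median of 0.60. In 7 of these 10 the difference was within 2-fold, and in 3 the probe was at least 2-fold higher. Among all 25818 probes detected on both arrays, 68.7% lay within 2-fold. The signals of the 10 on the negative array ran from 150 to 133036, and 7 of them were over 5000, a signal that 11.4% of probes detected on both arrays passed. The differences of those 7 ran from 0.28 to 1.15, and 5 of them were within 2-fold, as were 79.8% of all probes with such a signal.

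The 4 unrelated genes shown by sequence had the brightest probes with these letters. The probe of Elk1, an ETS-family transcription factor, read 133036 and 125675, a difference of 0.55, while another Elk1 probe without the letters read 81.2 and 52.5, a difference of 0.01. The probe of Glrx2, a mitochondrial glutaredoxin, read 110404 and 98609, a difference of 0.47, beside -0.13 for its other probe. The probe of Cxcl11, an interferon-induced chemokine, stood at 0.77 beside 0.25, and that of Med16, a Mediator subunit, at 1.08 beside 0.03. In these 4 genes the difference of the probe with the letters was somewhat above that of its partner. Pcnx was alike, at 1.81 beside 1.58 or less for its other detected probes, and Chid1 went the other way, at 0.36 beside 0.86 and 0.98. The search for shared letters was made after the values of the Siglech probes were seen, and the part of these letters in the reading of the 3′ Siglech probe was not tested.

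**Figure D2:**
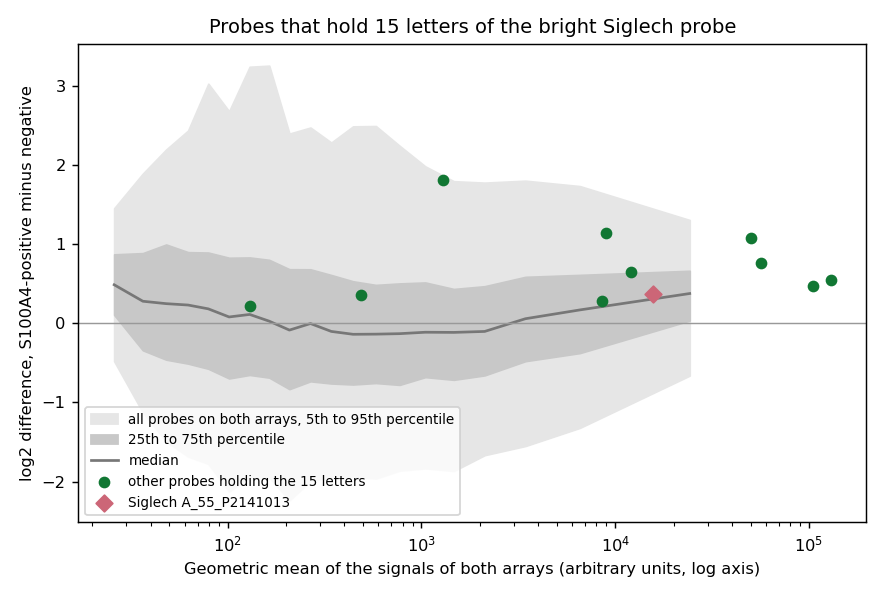
Log2 difference (S100A4-positive minus S100A4-negative) against the geometric mean signal of both arrays (arbitrary units, log axis) for the probes that hold the 15 letters on the same strand and were detected on both arrays; grey bands give the percentiles of all probes detected on both arrays, by signal. The Siglech probe (diamond, 0.37) lies among the other holders (circles, 0.22 to 1.81).

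Ptprs encodes the receptor-type tyrosine phosphatase sigma, a surface protein known to restrain plasmacytoid dendritic cell activation. Its probe A_51_P419726 (chr17:56551919-56551978, minus strand), designed on transcript variant 1, read 1652 and 7283. This is a difference of 2.77 ± 0.20, or 6.84-fold higher in the S100A4-positive fraction. The other, A_55_P2029905 (chr17:56585270-56585328, minus strand), designed on a cDNA clone and lying 33350 bases upstream, read 45.7 and 209, a difference of 2.83 ± 0.23. The 2 Ptprs probes differed by 0.06 in their response, less than the software's error. Under normexp correction A_51_P419726 stood at 2.76 and A_55_P2029905 at 1.76, which is 0.99 apart. With E1A scaling the same 2 differences became 0.34 and 0.40, still above 0 but within 2-fold.

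Pacsin1 encodes a membrane-bending adaptor of endocytosis that is prominent in neurons and plasmacytoid dendritic cells. A_55_P2020602 (chr17:27845530-27845589, plus strand), designed on transcript variant 3, read 3713 and 3181, a difference of 0.41 ± 0.20. A_51_P220422 (chr17:27847908-27847967, plus strand), designed on variant 1 and 2378 bases further downstream, read 2066 and 2359, a difference of 0.83 ± 0.20. Both Pacsin1 probes were thus within 2-fold, and they were 0.41 apart, less than the median spread of genes with several detected probes. Their direction rests on the scaling: with no scaling they stood at -0.22 and 0.19, and on the E1A controls at -2.02 and -1.61.

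Tcf4 encodes the E protein that plasmacytoid dendritic cells need for their development and upkeep. Its probes lie on the plus strand of chromosome 18. The most upstream, A_52_P521101, maps across 54577 bases (chr18:69625100-69679676) and so joins distant stretches of the gene. It read 20.3 and 138, a difference of 3.40 ± 0.32, or 10.5-fold higher in the S100A4-positive fraction, and it stood at 1.78 under normexp correction. The next, A_55_P2883484 (chr18:69681088-69723698), spans 42611 bases and was designed on a predicted variant named X11. It read 10.1, not well above background, and 25.7, at least 2.47-fold higher. Both upstream Tcf4 probes were therefore at least 2-fold higher, the second at a signal close to background, and it was under 2-fold with quantile normalization (0.89). On the E1A controls the first stood at 0.97 and the second had no direction.

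The other 3 Tcf4 probes lie within 4231 bases of each other towards the 3′ end and were all within 2-fold. A_55_P2054420 (chr18:69842843-69842902) read 3031 and 2650, a difference of 0.44 ± 0.20. A_55_P2734052 (chr18:69843918-69843977), the brightest of the gene, read 6898 and 4541, a difference of 0.03 ± 0.20. The last, A_65_P10725 (chr18:69847074-69847133), read 28.3 and 22.4, a difference of 0.30 ± 0.38, which its error covers. Under quantile normalization the latter pair stood at -0.12 and -0.08, and under E1A scaling all 3 were between -1.99 and -2.40, so that their direction rests on the scaling. The 5 probes spread over 3.37, or 10.3-fold, at percentile 99.0 of genes with several detected probes, and over 1.60 under normexp correction. As background, Tcf4 is known for many alternative first exons that share the 3′ end, but which transcripts the probes met here was not tested. The 3′ Tcf4 probes shared no 15-letter run with another gene on the same strand, unlike the 3′ probe of Siglech.

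Bcl11a encodes a zinc finger transcription factor needed for both B cells and plasmacytoid dendritic cells. Its 5 probes lie on the plus strand of chromosome 11. The brightest, A_55_P1958275 (chr11:24073114-24073173), designed on transcript variant 1, read 5638 and 881, a difference of -2.04 ± 0.20. The most upstream, A_52_P82704 (chr11:23989728-23989787), read 1692 and 214, a difference of -2.35 ± 0.21. The Bcl11a signal was thus lower in the S100A4-positive fraction at both ends of the stretch in which its probes were detected.

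Between them lie 2 probes designed on Bcl11a variant 4. A_55_P1988872 (chr11:24068355-24068414) read 3753 and 883, a difference of -1.45 ± 0.20, and A_55_P2485639 (chr11:24067406-24067465) read 552 and 62.8, a difference of -2.50 ± 0.22. All 4 detected Bcl11a probes were at least 2-fold lower, and they spread over 1.05, or 2.07-fold. Under normexp background correction the 4 ran from -1.42 to -2.25, so that they no longer differed by 2-fold. The fifth, A_55_P1958270 (chr11:24074059-24074118), lies 945 bases downstream of the brightest and was detected on neither array, with 3.31 and 3.33. It was designed on an Ensembl transcript, ENSMUST00000109516, that reaches beyond the other probes.

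Runx2 encodes a runt-domain transcription factor best known from bone formation, which plasmacytoid dendritic cells use when they leave the bone marrow. Its 3 probes lie on the minus strand of chromosome 17. A_52_P460545 (chr17:44744925-44744984), designed on transcript variant 3, read 7.17, not well above background, and 109, at least 10.5-fold higher. A_65_P18181 (chr17:44633034-44633093), designed on the non-coding variant 8 and lying 111891 bases further downstream, read 4.52, not well above background, and 37.9, at least 3.64-fold higher. These 2 Runx2 probes were seen on the positive array alone, and since both values are bounds, no disagreement between them can be read. The first of them stood at 1.70 or more under normexp correction. On the E1A controls it stood at 0.96 or more and the second had no direction. The most upstream probe, A_52_P55876 (chr17:44951128-44951187), was well above background on neither array, with 3.30 and 9.78. Its first 30 bases are printed because they hold the start codon, in capitals, with which, as background, the form made from the distal promoter begins.
Runx2 A_52_P55876: aaaggagggactATGgcgtcaaacagcctc
The probe with these letters was well above background in neither fraction, while the downstream Runx2 probes were detected in the S100A4-positive fraction. Of 6812 genes with 2 or more detected probes on 1 strand of 1 chromosome, 72.0% had their brightest probe nearest the 3′ end. The part of probe position and of transcript form in this reading was not tested.

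**Figure D3:**
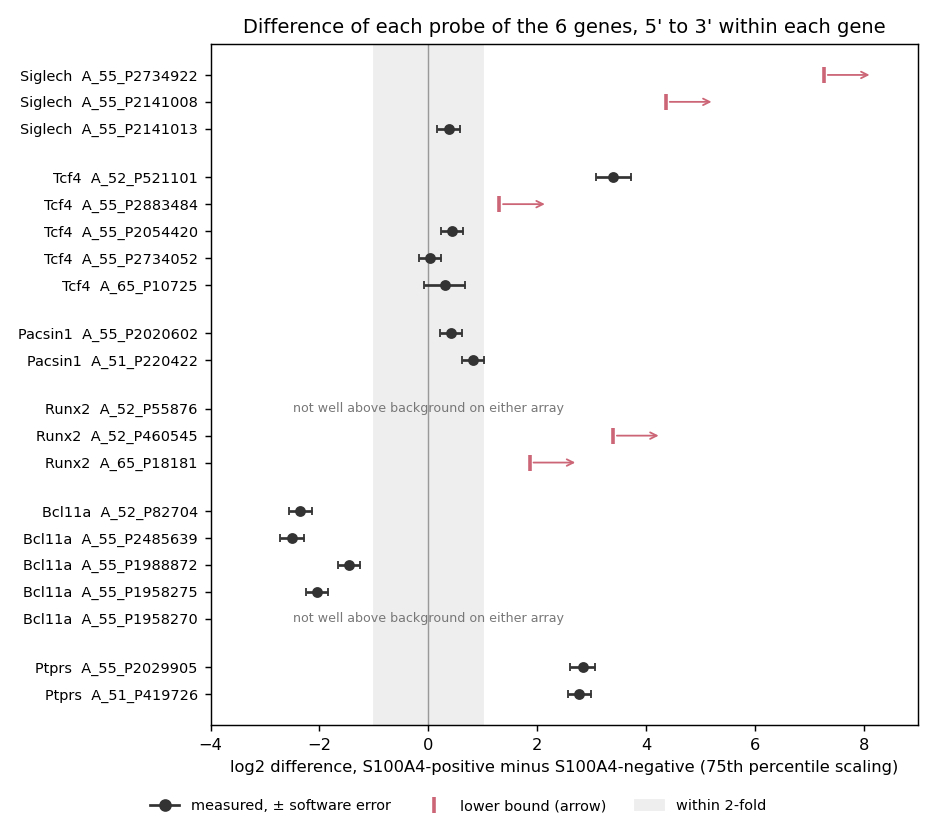
Log2 difference (S100A4-positive minus S100A4-negative, after centring on the 75th percentile) of each probe with the software's error; bars with arrows are lower bounds and the grey band is the range within 2-fold. The upstream Siglech and Tcf4 probes lie right of the band and the downstream ones inside it, while the 4 detected Bcl11a probes all lie left of it and both Ptprs probes right of it.

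In 3 of the 6 genes, Siglech, Tcf4 and Bcl11a, the detected probes differed from each other by at least 2-fold. The same was true of 2058 of the 6917 genes with at least 2 detected probes, or 29.8%, and since the genes were chosen for disagreeing probes nothing is read from the count. A disagreement of 4-fold or more, as in Siglech and Tcf4, was found in 464 genes (6.71%), though that of Tcf4 was under 4-fold with normexp correction. By the brightest probe of each gene, 2 of the 6 were at least 2-fold higher (Ptprs and Runx2; 21.7% of all detected genes), 1 was at least 2-fold lower (Bcl11a; 16.6% of all), and Siglech, Tcf4 and Pacsin1 lay within 2-fold. By the probe with the largest difference 4 were higher, with Siglech and Tcf4 added. This rule favours large differences in any gene with several probes, and the share of all genes under it is not given here.

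**Figure D4:**
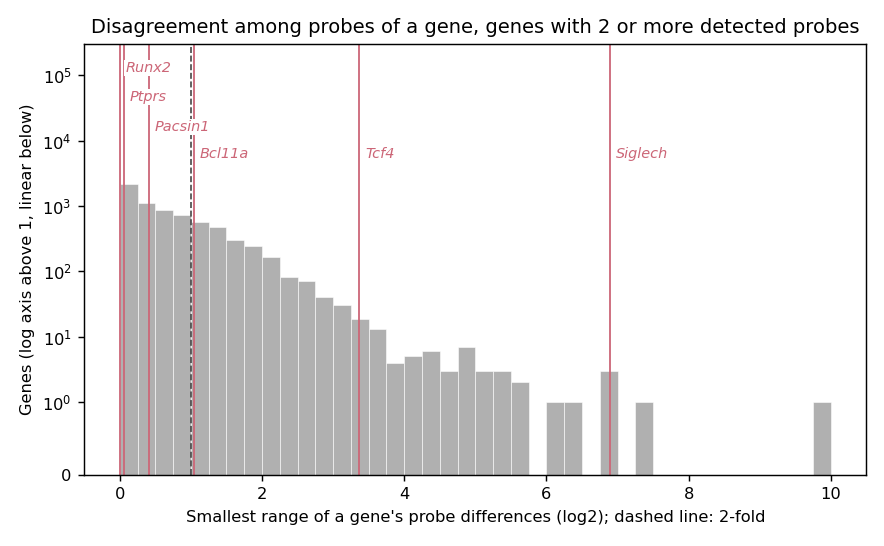
Number of genes (log axis above 1, linear below) by the smallest spread that the log2 differences of a gene's detected probes allow, in bins of 0.25, for 6917 genes; lines mark the 6 genes and the dashed line marks 2-fold. Siglech at 6.90 and Tcf4 at 3.37 lie far out, Bcl11a at 1.05 lies just past 2-fold, and Pacsin1, Ptprs and Runx2 lie below it.

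Of the 20 probes, 3 mapped across more than 60 bases, that is, across a gap in the genome: the most upstream Siglech probe and both upstream Tcf4 probes. The middle Siglech probe mapped without a gap. Of all 56209 mapped probes, 7.40% had a gap, and of those detected 20.3% were at least 2-fold higher in the S100A4-positive fraction, close to the share of all probes.

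The other genes of the plasmacytoid dendritic cell list were mostly higher in the S100A4-positive fraction under the 75th percentile scaling. Of 26 further genes of that list, all detected, 19 were at least 2-fold higher by their brightest probe, 1 was at least 2-fold lower and 6 lay within 2-fold, with a median of 1.98 beside 0.02 over all detected genes. Scaled on the E1A controls, 10 of the 26 were higher by 2-fold or more, 9 were lower by as much, and the median was -0.45. That scaling shifts all genes detected on both arrays alike, by -2.43, so this median is not to be set beside 0.02. The median of all genes under it is not given here. Far ahead were D13Ertd608e (1666-fold), and on the log2 scale the cytochrome c oxidase subunit gene Cox6a2 (9.47), the Ly49-family receptor gene Klra17 (8.39), the kallikrein gene Klk1 (7.19) and the inhibitory collagen receptor gene Lair1 (6.32). The values of Klra17 and Klk1 are uncertain, since near-identical relatives of both exist. Nrp1, a semaphorin co-receptor, stood at 5.24, Bst2, the interferon-induced tetherin, at 4.17, and the gut-homing chemokine receptor gene Ccr9 at 3.84. Ptcra, the pre-T cell receptor alpha chain known as a marker of these cells, was seen on the positive array alone at 3.85 or more, and the receptor kinase gene Epha2 stood at 3.82. Ly6c2 (2.78), Nucb2 (2.72) and Pld4, a lysosomal nuclease (2.12), were also over 4-fold higher. The gene that was lower was Spib, an ETS factor shared by plasmacytoid dendritic cells and B cells, which read 11824 and 2690, a difference of -1.50.

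Of the 13 listed genes with at least 2 detected probes, 4 had probes that differed by at least 2-fold, beside 29.8% of all such genes on the array. The count is near that share, and nothing about the list is read from it. In Zeb2, a zinc finger repressor, 7 probes ran from at least 1.21 to 4.22, and in Nrp1 7 probes ran from at least 1.77 to at least 7.22. Both genes were higher by every probe. The 2 probes of Ccr9 stood at 3.84 and 5.24, both higher. Of these 4 genes, Rpgrip1 alone was like Siglech and Tcf4 in having its brightest probe within 2-fold and another past it. Its brightest probe read 5609 and 3086, a difference of -0.23, and its other detected probe read 537 and 1146, a difference of 1.73. The list was written with earlier results of these data known, and it is not independent support for the direction of any gene.

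**Figure D5:**
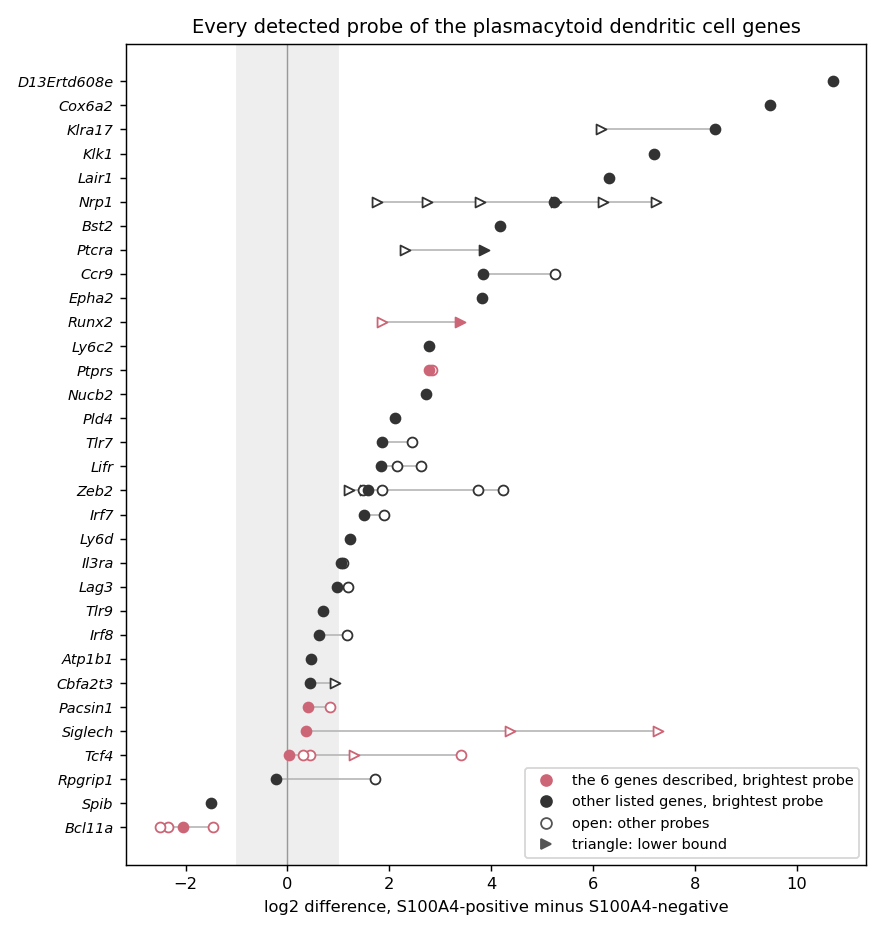
Log2 difference (S100A4-positive minus S100A4-negative) of every detected probe of the 6 genes and of the 26 other listed plasmacytoid dendritic cell genes, with the brightest probe filled and lower bounds as triangles; the grey band is the range within 2-fold. Most genes lie right of the band by every probe, while Siglech and Tcf4 reach from inside it to 7.27 and 3.40.

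The fractions also differed in the markers of other cell types that express some of these genes. Each of 10 B cell genes fell at least 2-fold short of its S100A4-negative level, with a median of -5.27, and their summed signal was 236876 against 15783 in the S100A4-positive fraction. This moves in the same direction as Bcl11a and Spib, and its part in their values and in those of the 3′ Tcf4 probes was not tested. Macrophage genes were higher by 2-fold or more in 9 of 9 cases (median 5.37), as were those of classical dendritic cells in 7 of 8 (median 5.96), where Xcr1 was detected on neither array. The 5 detected genes of enteric neurons and glia, cells known for Pacsin1 and Ptprs, had a median of -0.18 and a summed signal of 944 and 1265, which was 915 and 497 without Ret. The defining glial genes Sox10, S100b and Gfap were well above background on neither array, and Ret, which was higher at 5.32, is also known in immune cells. T cell genes (7 of 8 lower, median -3.27), epithelial genes (6 of 8 lower, 1 higher, median -3.11), plasma cell genes (3 of 6 lower, 2 higher, median -1.08) and fibroblast or stromal genes (3 of the 6 detected higher, 1 lower, median 0.34, Pdgfra and Bgn on neither array) complete the lists. The part of these cell types in the values of the 6 genes was not tested.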

How the data were processed

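Probe intensities of 2 one-colour arrays of design 74809 on 1 slide were used. Signals were extracted by the authors in Feature Extraction 10.7.1.1, per the file headers; version 9.5.1.1 stands in the submitters' processing notes. The deposited processed signal intensity is background-subtracted and detrended, per the file headers, and is not scaled between arrays; the deposited flag columns, other values than intensities, give each spot's status (well above background, outlier, saturated). The deposited value table served as an alternative.

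Control and outlier spots were left out, replicate spots averaged, and log2 signals centred on each array's 75th percentile. For a bound, the dark array's value was the lowest signal well above background on that array (16.1 negative, 15.7 positive), or the probe's own where higher. Sizes of 2-fold took the place of tests. Every probe of the 6 genes is reported; of the wider list, genes at least 4-fold different or with probes 4-fold apart are named, with Spib and Rpgrip1 named after their values were seen. Some listed genes are not reported here. Members and lists were chosen with earlier results of these data known. The number of arrays limits the precision: the median software error of a difference was 0.21, and 271 probes spotted repeatedly had a median SD of 0.10. Python 3.11.15 (numpy 2.4.6, pandas 2.3.3) and limma 3.58.1 in R 4.3.3 were used. The steps were tested on simulated data over 31584 probes. Among planted probes that stayed detected on both simulated arrays, all 77 planted at 3 and all 86 at -2 were recovered. Planted probes with only a bound were not counted. The planted sizes lay well past the 2-fold cut, so the check shows only that the steps ran as written.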

Additional observations from a re-analysis of the deposited data

How the results depend on the processing

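Probe differences numbered 144 over 8 alternatives of background correction, scaling and source. Of these, 79 stayed within the software's error of the value reported and 65 moved. For bounds, the limit was 0.21, the median error of probes detected on both arrays. No difference that was at least 2-fold as reported changed direction. Those within 2-fold as reported all fell below 0 on the E1A controls, the 3′ Siglech probe from 0.37 to -2.06. Scaling on the 7 E1A spike-in probes, which were 3.48-fold brighter on the positive array, shifted all differences by -2.43. It left 2 probes at least 2-fold higher instead of 8 and made 10 at least 2-fold lower instead of 4. Of the 26 other listed genes it left 10 at least 2-fold higher instead of 19 and made 9 at least 2-fold lower instead of 1. These list counts were added after the values were seen. The shift applies to the whole array, whose shares under this scaling are not given here. Nothing about the 6 genes or the list is therefore read from the counts under it. Differences between probes of 1 gene detected on both arrays do not move with such a shift, and the count of genes with probes 2-fold apart stayed at 3. That count was 2 under normexp correction and for the signal before multiplicative detrending, and 4 with no filter on dim probes. Taking the probe with the largest difference for each gene, a rule that favours large differences, made 4 genes at least 2-fold higher instead of 2. The second Tcf4 probe fell under 2-fold with normexp (0.72), quantile normalization, no scaling (0.67) and the deposited value table (0.89), and the Runx2 probe on variant 8 with normexp (0.88). No paired analysis was possible because each group has 1 array and no test was made.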
